A study of Mus musculus with 15 samples.

Results

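The 6 genes described here are known as transcription targets of the glucocorticoid receptor: Tsc22d3, Fkbp5, Zbtb16, Sgk1, Klf15 and Klf9. They were chosen by name, with earlier results of these data known. All 6 of 6 were found among the 8059 genes of the deposited count table. The table follows muscle stem cells, the resident stem cells of skeletal muscle, while mouse muscle is taken apart with enzymes. Its 22 bulk RNA-seq libraries fall into 6 time points. At T0 the muscle was intact (4 libraries). At T15 (4), T30 (3), T60 (4), T90 (3) and T120 (4) it had been dissociated with collagenase and dispase. All 6 groups carry the fixation label, and fixation was with PFA (paraformaldehyde). The labels give no unit for the numbers, which were taken as minutes, and no strain, genotype, sex or age. Libraries of a time point carry the letters A to D. Whether these come from separate animals is not given, so the p-values measure the spread between these libraries, which may be technical. No source used here says how the bulk cells were purified.

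The glucocorticoid receptor, encoded by Nr3c1, is held in the cytoplasm by a complex of heat shock proteins and immunophilins. When cortisol or corticosterone binds, it moves into the nucleus and attaches to DNA as a dimer, at palindromic response elements whose arms read AGAACA and TGTTCT. In skeletal muscle its targets are known for restraining growth signalling and inflammation and for shifting fuel use towards amino acids. Tsc22d3 encodes GILZ, a leucine zipper protein that mediates anti-inflammatory actions of the hormone. Fkbp5 encodes the immunophilin FKBP51, which lowers the hormone affinity of the receptor and so closes a feedback loop. Zbtb16 encodes PLZF, a zinc finger repressor. Sgk1 encodes a serine/threonine kinase close to AKT, and it is also known to be induced by serum and by cell stress. Klf15 and Klf9 encode Krüppel-like zinc finger factors, of which KLF15 controls amino acid catabolism in muscle.

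RefSeq promoter windows (GRCm38.p6) were found for 5 of the 6 genes, 12 windows in all, and not for Zbtb16. The 250 bases before a transcript start were searched on both strands. The full palindrome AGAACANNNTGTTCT was present in 3 of 32851 mouse windows (0.00913%), and 1 of those 3 belongs to Sgk1. Of the windows with a match, 1 is shown for each of 4 genes. The arm TGTTCT also occurs in 2 other Sgk1 windows and in 1 of Tsc22d3, from 185 to 180 bases before the start at chrX 140600522, which are not printed. Capitals mark the palindrome, its arm TGTTCT (16.1% of all windows), the E-box CACGTG (6.02%) and the core of the cyclic AMP response element TGACGT (6.47%). Each is written 5′ to 3′ on the strand of its gene.
Sgk1, chr10:21993640-21993889, plus strand: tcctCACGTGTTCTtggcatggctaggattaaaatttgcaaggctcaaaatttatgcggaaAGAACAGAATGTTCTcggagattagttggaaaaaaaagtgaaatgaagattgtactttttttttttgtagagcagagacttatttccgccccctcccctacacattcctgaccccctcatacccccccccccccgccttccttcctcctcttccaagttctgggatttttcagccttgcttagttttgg
Klf15, chr6:90462326-90462575, plus strand: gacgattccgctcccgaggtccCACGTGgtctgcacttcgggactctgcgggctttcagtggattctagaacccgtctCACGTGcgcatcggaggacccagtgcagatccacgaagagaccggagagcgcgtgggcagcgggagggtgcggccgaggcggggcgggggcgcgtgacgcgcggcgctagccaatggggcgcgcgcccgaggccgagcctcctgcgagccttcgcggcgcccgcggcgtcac
Fkbp5, chr17:28486150-28486399, minus strand: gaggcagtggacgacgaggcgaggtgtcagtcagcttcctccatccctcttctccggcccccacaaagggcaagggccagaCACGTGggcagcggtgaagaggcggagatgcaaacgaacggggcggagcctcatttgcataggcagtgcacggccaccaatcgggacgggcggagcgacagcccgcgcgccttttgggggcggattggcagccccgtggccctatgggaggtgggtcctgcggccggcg
Klf9, chr19:23140976-23141225, plus strand: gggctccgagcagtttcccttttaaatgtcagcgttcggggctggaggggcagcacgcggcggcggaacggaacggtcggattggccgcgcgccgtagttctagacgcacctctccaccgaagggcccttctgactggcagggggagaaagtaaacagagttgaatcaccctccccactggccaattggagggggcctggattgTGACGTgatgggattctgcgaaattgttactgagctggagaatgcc
The palindrome of Sgk1, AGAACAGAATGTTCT, lies at chr10:21993701-21993715, from 189 to 175 bases before the transcript start at 21993890. It is intronic: 5 annotated Sgk1 transcripts span it and 0 exons overlap it. Another Sgk1 start, at 21994666, lies 951 bases downstream of it. In the first capital run of the same window an E-box and an arm share bases. The Klf15 window holds 2 E-boxes, the Fkbp5 window 1 E-box, and the Klf9 window 1 TGACGT. These matches are letters in a window and not measured binding sites.

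Positions are from GENCODE vM21 on mm10, and all 6 genes are protein coding. Tsc22d3 (ENSMUSG00000031431) lies at chrX:140539528-140600659 on the minus strand. Fkbp5 (ENSMUSG00000024222) lies at chr17:28399094-28517527 and Zbtb16 (ENSMUSG00000066687) at chr9:48654297-48836222, both on the minus strand. Sgk1 (ENSMUSG00000019970) lies at chr10:21882184-21999903, Klf15 (ENSMUSG00000030087) at chr6:90462576-90475238 and Klf9 (ENSMUSG00000033863) at chr19:23141226-23168134, all on the plus strand.

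Totals over the listed genes were 2974294 to 10482407 counts per library up to T30 and 8647622 to 27826437 from T60 on. The number of listed genes that changed against T0 was 54 at T15, 403 at T30 and 6187 at T120 (edgeR quasi-likelihood test, adjusted p under 0.05). All 14 listed muscle stem cell markers had rows, and their summed level was 4870 to 5850 CPM (counts scaled to the library total) at T0 and 7570 to 8980 at T120. Singly, 5 of the 14 rose and 7 fell at T120 (median -0.24), where 37.3% of the table rose and 39.5% fell. The sum there was carried by Sdc4 (421 to 2530 CPM), Des (445 to 1450) and Myod1 (81.5 to 936). Pax7, another of these markers, went from 1340 to 377 CPM. A set of 5 long genes not known for muscle expression gave a measure of reads spread over the genome. Singly these genes differed: in its highest library Mroh2a had 29 CPM per kb, and the others had 4.24 to 6.67 in theirs. The mean of the measure was 2.61 CPM per kb of exon at T0, 1.57 at T15, 4.73 at T30, and 0.207 to 0.482 at the later points. The 5 libraries highest in it were T0A, T0C, T15D, T30A and T30B. T0A was the lowest T0 library for 5 of the 6 genes, and T15D the lowest T15 library for all 6.

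The 6 genes parted into a group of 4 that fell and a group of 2 that rose. By T120 Tsc22d3 was 18.2-fold lower than at T0, Klf15 7.61-fold, Zbtb16 7.38-fold and Fkbp5 3.93-fold. Sgk1 was 6.26-fold higher and Klf9 2.35-fold higher. The falls grew when background was subtracted, by an amount that depended on the background genes. On the log2 scale and without Ryr3, Tsc22d3 went from -4.19 to -4.65 and Klf15 from -2.93 to -3.39. Zbtb16 went from -2.88 to -3.24 and Fkbp5 from -1.97 to -2.16. With Ryr3 included the values were -5.65, -4.67, -3.72 and -2.78 in the same order. Ryr3 itself had 6.16 to 24 CPM per kb in all libraries. All 6 passed the test at T60, T90 and T120. By then most of the table had changed too: 56.2% of all listed genes were called at T60 (27.9% up, 28.3% down), 68.8% at T90 (33.8% up, 35% down) and 76.8% at T120 (37.3% up, 39.5% down). The libraries of each of these points did not overlap those of T0 for any of the 6 genes, as for 54.8%, 67% and 71.4% of the table. The share of the table called was far lower at T30, where 1.34% of listed genes fell and 5% were called in either direction. There 3 of the 6 genes fell (Tsc22d3, Fkbp5 and Zbtb16). The same 3 had T30 ranges apart from T0, as had 17.3% of the table. At T15, where 0.67% of listed genes were called and 0.658% rose, Sgk1 alone of the 6 rose. The joint test over all time points called 6 of 6 genes, as it did 85.7% of the table.

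**Figure D1:**
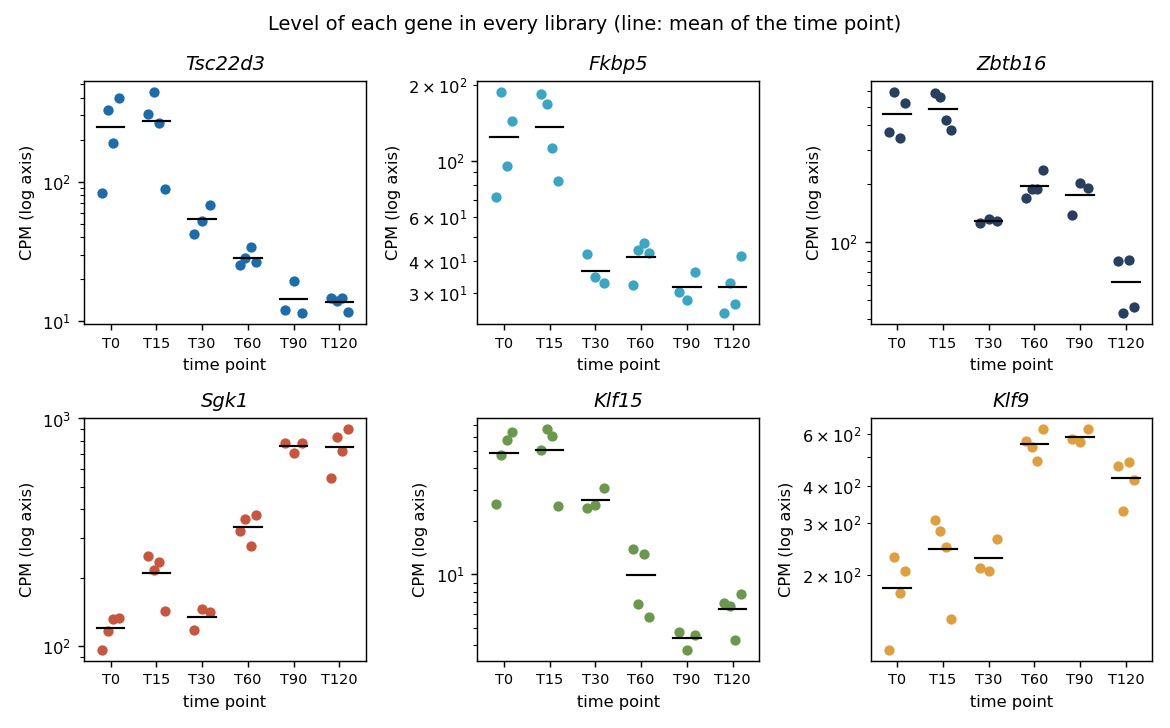
Level of each of the 6 genes in CPM (log axis, with its own range in each panel) in every library, by time point. Each point is 1 library and each line the mean of a time point. Tsc22d3, Fkbp5, Zbtb16 and Klf15 lie high at T0 and T15 and low from T60 on. Sgk1 and Klf9 lie high from T60 on.

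Tsc22d3 had the widest change of the 6. Its level was 82.6, 327, 189 and 396 CPM in the T0 libraries A to D, and 306, 440, 262 and 88.9 CPM at T15. It was 42.1, 52.2 and 68.3 CPM at T30, and 25.2, 28.3, 34.1 and 26.6 CPM at T60. All 3 T30 libraries were thus below all T0 and T15 libraries, although the highest T0 library was 4.8 times the lowest. At T90 the values were 12.1, 19.5 and 11.5 CPM, and at T120 they were 14.7, 14.0, 14.6 and 11.6 CPM. The log2 fold change against T0 was 0.14 ± 0.38 (SE) at T15 (adjusted p = 0.999), -2.19 ± 0.45 at T30 (adjusted p = 0.00369) and -4.19 ± 0.44 at T120 (adjusted p = 2.67e-08). Between T15 and T30 Tsc22d3 fell by 2.33 ± 0.45 on the log2 scale (adjusted p = 0.00383). Background would amount to 9.79% to 75.2% of its level at T30, and its T30 change against T0 was -2.47 after subtraction without Ryr3 (adjusted p = 0.00194). In a fit of only the T15 and T30 libraries the step from T15 was -2.31 with an adjusted p of 0.053. The steps from T30 to T60 (-0.93 ± 0.42, adjusted p = 0.0702) and from T60 to T90 (-0.99 ± 0.44, adjusted p = 0.0931) missed the threshold, although in each the later libraries all lay below the earlier ones.

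Fkbp5 fell between T15 and T30 and then stayed within a narrow range. Its level was 71.9, 187, 95.0 and 144 CPM in the T0 libraries A to D, and 183, 167, 112 and 83.1 CPM at T15. It was 42.7, 34.8 and 32.8 CPM at T30. Every T30 library lay below every earlier one. At T60 the libraries had 32.2, 44.2, 47.3 and 43.3 CPM, at T90 30.2, 28.2 and 36.2 CPM, and at T120 25.0, 32.8, 27.0 and 42.0 CPM, so the later time points overlapped each other and T30. Against T0 the log2 fold change was -1.77 ± 0.30 at T30 (adjusted p = 0.000538) and -1.97 ± 0.27 at T120 (adjusted p = 9.05e-07). The step from T15 to T30 was -1.90 ± 0.30 (adjusted p = 0.000661). None of the 3 later steps passed the test, with values of 0.19, -0.40 and 0.01.

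Fkbp5 has the longest exons of the 6 genes (9468 bases), and up to T30 genome-spread reads weighed most on it. From T60 on their mean share was highest for Klf15 (6.26% at T60, 16.3% at T90 and 21.2% at T120). At the measured density they would amount to 44.4% to 161% of the level of Fkbp5 in the T30 libraries, and to 7.1% to 41.4% at T0. In T30A and T30B this is more than all that was measured, so the density is too high for Fkbp5 there. With that background subtracted its T30 change against T0 was -3.81 (adjusted p = 0.00425), and -9.42 when Ryr3 was kept as a sixth background gene. In the first case 0 counts were left in T30A and T30B, so the fitted size rests on T30C. Without the 5 libraries highest in background it was -2.30 (adjusted p = 0.00152). The fall was thus called in each case, but its size at T30 is poorly fixed. After the subtraction the step from T30 to T60 became a rise of 2.12 (adjusted p = 0.0404), or 6.93 with Ryr3 (adjusted p = 0.000199), where 0.19 had been measured.

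**Figure D2:**
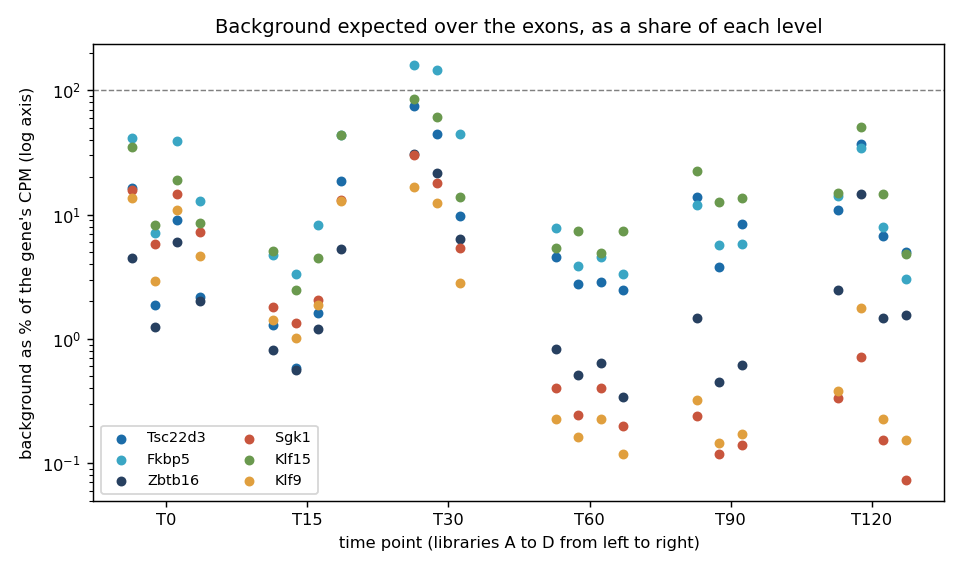
Level expected from genome-spread reads over each gene's exons, as a percentage of the gene's CPM (log axis), for each library by time point. The dashed line marks 100%. Fkbp5 exceeds it in T30A and T30B, and Zbtb16, Sgk1 and Klf9 remain at or under 30.8% in every library.

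Zbtb16 fell in separate stages. Its level was 372, 595, 346 and 522 CPM in the T0 libraries A to D, and 589, 559, 429 and 379 CPM at T15. At T30 it was 125, 131 and 128 CPM, the tightest set of all (coefficient of variation 2.42%). All T30 libraries lay below the lowest earlier library. At T60 it was 169, 187, 188 and 236 CPM, and at T90 137, 201 and 189 CPM. At T120 the values were 79.3, 42.9, 80.5 and 45.9 CPM, all below every other library of the series. The first fall, from T15 to T30, measured -1.93 ± 0.24 (log2, adjusted p = 7.06e-05). The last, from T90 to T120, measured -1.5 ± 0.23 (adjusted p = 0.000296), and Zbtb16 was the 1 gene of the 6 called in that step, where 23% of listed genes were called.

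Between these falls Zbtb16 was 0.61 ± 0.23 higher at T60 than at T30 (adjusted p = 0.0353). That small rise depended on the treatment of background. It was -0.04 (adjusted p = 0.90) after subtraction and 0.26 (adjusted p = 0.316) when libraries were scaled by their totals alone. In the authors' deposited table it is 0.557 with an adjusted p of 0.0509. Without any 1 of T30A, T30B, T30C, T60B and T60D it also missed the threshold (adjusted p up to 0.108). The fall at T30 against T0 was -1.84 ± 0.24 (adjusted p = 2.57e-05), and -1.58 after subtraction (adjusted p = 0.000145).

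Klf15 passed the test from T60 on, not yet at T30, and whether its timing differed from the other 3 was not tested. Its level was 25.0, 47.5, 57.5 and 63.7 CPM in the T0 libraries A to D, and 50.2, 66.4, 60.8 and 24.3 CPM at T15. At T30 it was 23.7, 24.6 and 30.7 CPM. T0A and T15D, the lowest of their groups, reached into the T30 range, so the groups overlapped. At T60 it was 13.9, 6.81, 13 and 5.75 CPM, at T90 4.73, 3.76 and 4.55 CPM, and at T120 6.94, 6.62, 4.28 and 7.76 CPM. Every library from T60 on was below every earlier one. The change against T0 was -0.87 ± 0.35 at T30 (adjusted p = 0.165), -2.30 ± 0.33 at T60 (adjusted p = 5.9e-06), -3.48 ± 0.39 at T90 (adjusted p = 1.15e-07) and -2.93 ± 0.34 at T120 (adjusted p = 1.18e-07). The step from T15 to T30 was -0.94 ± 0.34 (adjusted p = 0.11), and without T15D it was called at -1.14 (adjusted p = 0.0232). Klf15 fell in the steps from T30 to T60 (-1.42 ± 0.34, adjusted p = 0.00179) and from T60 to T90 (-1.19 ± 0.36, adjusted p = 0.0186). The first was -1.16 after background subtraction (adjusted p = 0.0745). The second was lost without T60A, T60C or T90B, with adjusted p from 0.0574 to 0.0623. It was -1.35 after subtraction (adjusted p = 0.0997) and -1.09 with limma-voom (adjusted p = 0.106). At T30 the background would amount to 14% to 85.8% of the level of Klf15, and its T30 change was -1.43 after subtraction (adjusted p = 0.0864).

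Sgk1 was the earliest of the 6 to change and the one that rose furthest. Its level was 96.5, 117, 132 and 133 CPM in the T0 libraries A to D, and 249, 216, 233 and 142 CPM at T15. At T30 it was back at 118, 145 and 141 CPM. The T15 libraries were all above the T0 ones, and the T30 libraries overlapped both. At T60 the level was 321, 362, 274 and 377 CPM, at T90 780, 708 and 783 CPM, and at T120 549, 827, 719 and 901 CPM. The groups at T60 and later lay wholly above all earlier libraries. The rise over T0 was 1.48 ± 0.17 at T60 (adjusted p = 3.62e-07), 2.66 ± 0.18 at T90 (adjusted p = 1.11e-10) and 2.65 ± 0.18 at T120 (adjusted p = 3.61e-11). It came in the steps from T30 to T60 (1.31 ± 0.19, adjusted p = 1.23e-05) and from T60 to T90 (1.18 ± 0.18, adjusted p = 0.000105), and the step to T120 was -0.01 ± 0.18 (adjusted p = 0.965).

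The early movement of Sgk1 was less firm. At T15 it was 0.81 ± 0.17 above T0 (log2, adjusted p = 0.0168), higher in 4 of 4 libraries than in any T0 library, where 2.8% of listed genes had ranges that did not overlap. Leaving out T0A, T0B, T15A, T15B or T15C in turn kept the value between 0.71 and 0.80 but moved the adjusted p to between 0.0503 and 0.136. It was 0.67 after background subtraction (adjusted p = 0.0993), and 0.81 with an adjusted p of 0.138 when only the T0 and T15 libraries were fitted. From T15 to T30 Sgk1 fell by 0.64 ± 0.18 (adjusted p = 0.0467). That call was lost without any 1 of T15A, T15B, T15C, T30A and T30B, and the step was -0.14 after subtraction (adjusted p = 0.584). The authors' deposited table gives 0.842 (adjusted p = 0.000119) for the first and -0.562 (adjusted p = 0.0354) for the second.

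Klf9, although of the same family as Klf15, went the other way. Its level was 112, 230, 174 and 206 CPM in the T0 libraries A to D, 307, 281, 248 and 142 CPM at T15, and 212, 207 and 264 CPM at T30. These 3 time points overlapped. At T60 it was 565, 542, 486 and 623 CPM, at T90 574, 560 and 622 CPM, and at T120 467, 328, 483 and 419 CPM. Every library from T60 on was above every earlier one. Against T0 Klf9 rose by 1.62 ± 0.21 at T60 (adjusted p = 1.84e-06), 1.70 ± 0.22 at T90 (adjusted p = 9.66e-07) and 1.23 ± 0.21 at T120 (adjusted p = 1.77e-05). The rise came in the step from T30 to T60 (1.28 ± 0.23, adjusted p = 0.000125), which was 0.50 after background subtraction (adjusted p = 0.0589). After subtraction Klf9 was already 0.80 above T0 at T30 (adjusted p = 0.0112), against 0.34 ± 0.22 (adjusted p = 0.43) without it. The T120 libraries all lay below the T90 ones, but that step of -0.47 ± 0.22 missed the threshold (adjusted p = 0.131).

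**Figure D3:**
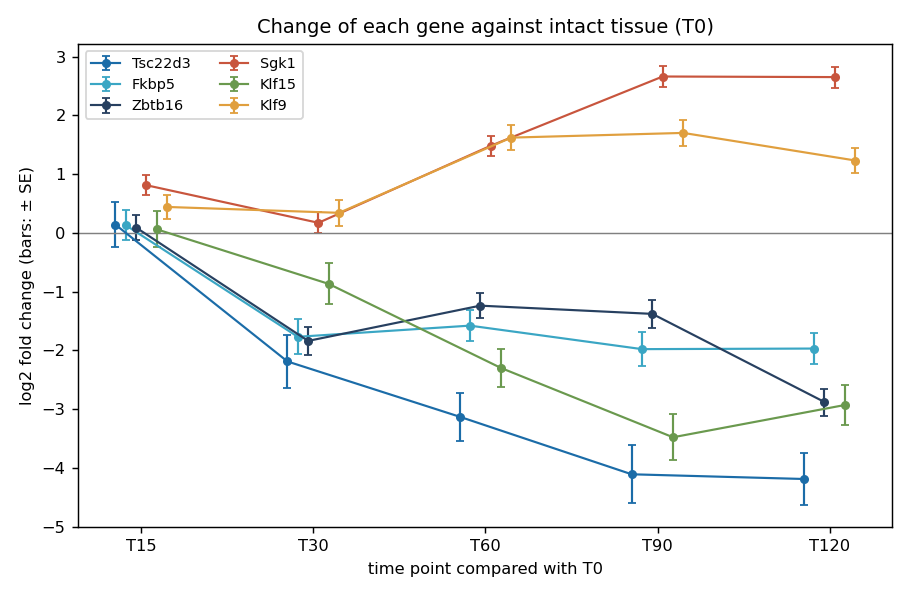
Log2 fold change of the 6 genes against T0 (points, with bars of ± 1 SE) at each later time point. Tsc22d3 reaches -4.19 and Sgk1 2.65 at T120. At T30 Klf15 is at -0.87, above the other 3 that fell, and the 5 comparisons share the T0 libraries.

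**Figure D4:**
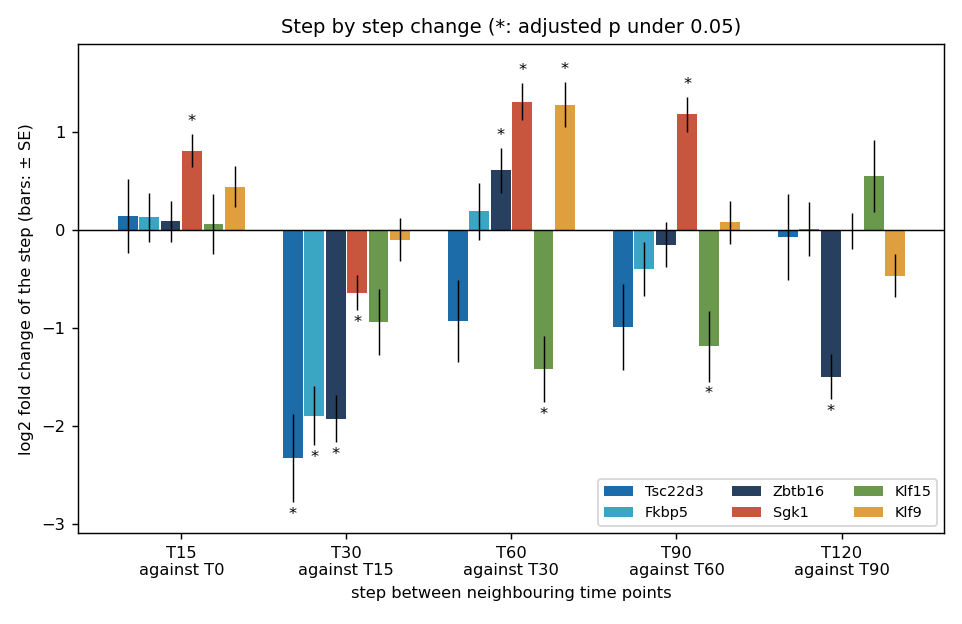
Log2 fold change of the 6 genes between neighbouring time points, with bars of ± 1 SE and asterisks for an adjusted p under 0.05. The step from T15 to T30 holds the falls of Tsc22d3, Fkbp5 and Zbtb16, and the step from T30 to T60 the rises of Sgk1 and Klf9. Neighbouring steps share a time point.

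Among the steps between neighbouring time points, the share of the 6 genes called stood furthest from that of the table between T15 and T30. The 6 genes were chosen with earlier results of these data known, so these shares describe them and are no test. From T15 to T30, 4 of the 6 genes were called, all lower, where 4.89% of listed genes were called and 1.72% fell. Sgk1 was called in 2 of the 10 alternative analyses of that step, so that in 7 of them the count was 3, and it was 2 with only the 2 time points fitted. From T30 to T60 there were 4 calls against 51% of the table, from T60 to T90 2 against 30.3%, and from T90 to T120 1 against 23%. Ranges did not overlap for 3 of the 6 genes from T15 to T30 (13.5% of the table), 5 from T30 to T60 (53.8%), 3 from T60 to T90 (38.7%) and 2 from T90 to T120 (26.8%). The median step of the 6 from T15 to T30 was -1.42, beside -0.02 over all listed genes.

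Per kb of exon, the order of the 6 genes was rearranged. At T0 Zbtb16 led with a mean level of 86.8 ± 22.6 CPM per kb (SD, n = 4), followed by Tsc22d3 at 57.3 ± 32.3, Klf9 at 37.4 ± 10.6, Sgk1 at 24.4 ± 3.47, Klf15 at 17.4 ± 6.09 and Fkbp5 at 13.1 ± 5.41. Neighbours in that order overlapped in their spread. At T120 Sgk1 stood first at 153 ± 31.1 CPM per kb, then Klf9 at 88.1 ± 14.5 and Zbtb16 at 11.8 ± 3.89. Fkbp5 at 3.35 ± 0.805, Tsc22d3 at 3.16 ± 0.336 and Klf15 at 2.29 ± 0.535 lay close together. The first 3 did not overlap each other or the last 3, whereas Fkbp5, Tsc22d3 and Klf15 lay within 1.53 and 4.43 CPM per kb.

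The receptor gene rose while 4 of its targets fell. Nr3c1 had 142 ± 10.5 CPM at T0 (SD, n = 4), 163 ± 12.8 at T15, 155 ± 14.0 at T30 and 222 ± 21.7 at T120 (n = 4). It rose against T0 by 0.32 ± 0.09 at T60 (adjusted p = 0.00678) and by 0.65 ± 0.09 at T120 (adjusted p = 2.78e-06), and its values at T15 (0.20 ± 0.09) and T30 (0.13 ± 0.10) missed the threshold. Nr3c2, the mineralocorticoid receptor, which binds the same hormone, rose by 0.35 ± 0.14 at T60 (adjusted p = 0.0475).

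Of 15 listed genes for the chaperones of the receptor, 3 rose and 1 fell at T30, where 5% of the table was called. At T120 10 rose and 0 fell, beside 37.3% of the table that rose and 39.5% that fell, with a median of 0.90 beside -0.08. Hsp90aa1, the inducible HSP90 that holds the receptor ready for hormone, rose by 0.80 ± 0.20 at T30 (adjusted p = 0.0178) and by 3.25 ± 0.20 at T120 (adjusted p = 1.21e-11). Dnaja1, an HSP40 co-chaperone, rose by 2.70 ± 0.23 at T120, and Ptges3, the co-chaperone p23, by 1.41 ± 0.15. Stip1, which links HSP70 to HSP90, was the gene that fell at T30 (-0.49 ± 0.13, adjusted p = 0.0379), and it rose by 1.31 ± 0.12 at T120. These are also heat shock genes.

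Of 21 listed coregulators of the receptor, 1 rose at T30, where 5% of the table was called. At T60 12 rose and 2 fell, beside 56.2% of the table called, and at T120 12 rose and 4 fell, beside 76.8%. The 1 at T30 was Tgfb1i1 (0.90 ± 0.23, adjusted p = 0.0255), named here after its value was seen. Crtc2, a coactivator of CREB, rose by 1.05 ± 0.11 at T60, the deacetylase gene Sirt1 by 1.27 ± 0.16 and the chromatin remodeller gene Arid1a by 1.00 ± 0.11. Ehmt1, a histone methyltransferase gene, fell by 0.31 ± 0.12 at T60 and by 1.17 ± 0.12 at T120, from 176 CPM at T0 to 78.5 CPM. Of 7 genes for handling the hormone, 3 were in the table. Hsd11b1, whose enzyme regenerates active glucocorticoid inside cells, had 133 CPM at T0 and 55.2 CPM at T120, and fell by 1.27 ± 0.17 (log2, adjusted p = 7.75e-07). Abcb1b, an efflux pump, rose by 0.90 ± 0.14 at T120, and H6pd was at 0.15 ± 0.15 (adjusted p = 0.356).

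A list of 49 further genes known to respond to glucocorticoid had 39 members in the table. At T15, 3 rose and 0 fell, where 0.67% of the table was called and 0.658% rose. At T30, 9 rose and 1 fell, where 295 of the 8059 listed genes rose and 1.34% fell. The median at T30 was 0.25 beside -0.01 over all listed genes, the opposite sign to the 6 genes above (-1.32). At T120, 18 rose and 13 fell, where 37.3% of the table rose and 39.5% fell. Zfp36, which encodes an mRNA decay factor, went from 19.6 CPM at T0 to 214 at T15 and 685 at T30, a rise of 5.14 ± 0.24 at T30 (adjusted p = 4.88e-12). Dusp1, a phosphatase gene that dampens MAP kinases, was at 48.5 CPM at T0 and rose by 3.07 ± 0.17 at T15 (adjusted p = 7.2e-11). The third at T15 was Rhob, a small GTPase gene, at 1.21 ± 0.16 (adjusted p = 5.99e-05), named after its value was seen. Zfp36, Dusp1 and Rhob are also known as immediate early genes, which answer many stimuli.

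Other members of that list rose at T30 and further at T120. Cdkn1a, the cell cycle inhibitor p21, rose by 2.30 ± 0.33 at T30 and 4.84 ± 0.31 at T120. The metallothionein genes Mt1 (1.88 ± 0.25) and Mt2 (1.15 ± 0.20) and the stress gene Gadd45a (1.12 ± 0.15) also rose at T30. Errfi1, an inhibitor of the EGF receptor, rose by 3.23 ± 0.21 at T60. The 1 gene that fell at T30 was Foxo3, a FoxO transcription factor gene of muscle wasting (-0.79 ± 0.21, adjusted p = 0.0308), named after its value was seen. Pik3r1, a regulatory subunit of PI3 kinase, was at 736 CPM at T0 and 130 CPM at T120, and fell by 2.50 ± 0.17 (log2, adjusted p = 3.38e-11).

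**Figure D5:**
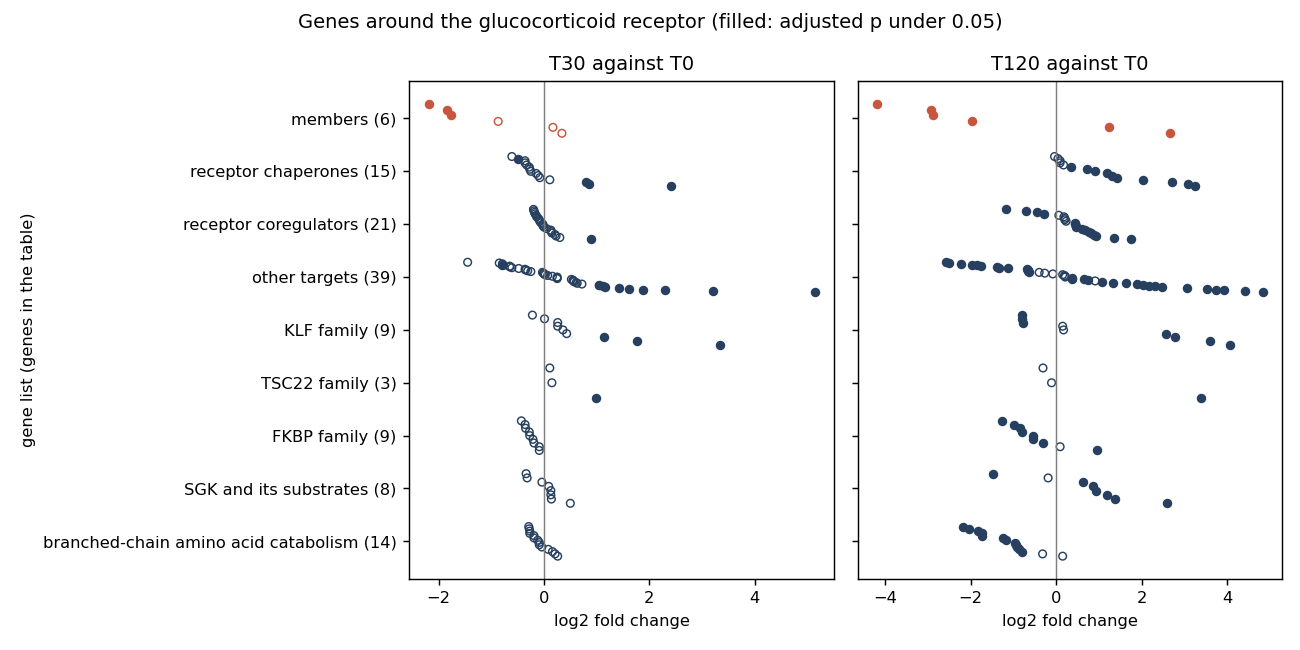
Log2 fold change of single genes at T30 (left) and T120 (right) against T0, by gene list, with the number of genes in the table in brackets. Each point is 1 gene, and filled points have an adjusted p under 0.05. At T30 the 6 target genes (top row, red) run from -2.19 to 0.34. There 9 of 39 other targets rose, beside 295 of all 8059 listed genes.

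Relatives were listed for the KLF, TSC22 and FKBP families. Of 9 other KLF genes, 3 rose and 0 fell at T30 (5% of the table called). At T60 6 rose and 1 fell, beside 27.9% and 28.3% of the table. The same counts at T90 stood beside 33.8% and 35%. At T120 4 rose and 3 fell, where 76.8% of the table was called. Klf4, known as an early response factor, went from 20.7 ± 6.82 CPM at T0 (SD, n = 4) to 123 ± 49.5 at T15 and 565 ± 170 at T60, and Klf6 rose by 0.86 ± 0.19 at T15 (adjusted p = 0.031). Klf16 and Klf5 rose by 3.59 ± 0.23 and 2.78 ± 0.30 at T120. Of the 3 other TSC22 genes, Tsc22d2 rose by 3.39 ± 0.18 at T120 (adjusted p = 1.92e-12), from 50.8 to 533 CPM, while Tsc22d3 fell. Tsc22d1 (-0.31 ± 0.19) and Tsc22d4 (-0.11 ± 0.13) missed the threshold. Of 9 other FKBP genes, 0 were called at T30, when Fkbp5 fell, and 1 rose and 7 fell at T120, where 39.5% of the table fell. Fkbp2 fell by 1.27 ± 0.16 at T120 and Fkbp1a, which encodes FKBP12, rose by 0.96 ± 0.16.

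A further 2 lists stand downstream of single members. Of 8 genes for relatives, activators and substrates of SGK1, 0 were called at T30, beside 5% of the table. At T120 6 rose and 1 fell, beside 76.8% called, with a median of 0.90 against -0.08. Ndrg1, whose protein SGK1 phosphorylates, rose by 2.58 ± 0.26 (adjusted p = 1.48e-08), Akt2 by 1.37 ± 0.12, Akt1 by 1.18 ± 0.09 and Rictor, a subunit of mTORC2 that activates SGK1, by 0.94 ± 0.09. Of 14 genes of branched-chain amino acid and proline catabolism, a process that KLF15 controls, 0 rose at any time point. There were 0 that fell at T30, 8 at T60 and 12 at T120, beside 1.34%, 28.3% and 39.5% of the table, with a median of -1.08 at T120 beside -0.08 over all listed genes. Prodh, a proline dehydrogenase gene and known KLF15 target, fell by 0.64 ± 0.16 at T60 (adjusted p = 0.00227) and 2.19 ± 0.17 at T120 (adjusted p = 3.94e-10). The dehydrogenase kinase gene Bckdk fell by 1.74 ± 0.17, Mccc1 by 1.73 ± 0.16 and Ivd by 2.04 ± 0.19 at T120.

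Markers of other cells moved with time in some cases. In these bulk libraries fewer cells of a type and less RNA per cell cannot be told apart. The summed level of 7 listed of 14 myofibre markers was 512 to 702 CPM at T0, 459 to 1040 at T30 and 235 to 320 at T60, where 5 fell. The 6 listed of 10 endothelial markers summed to 170 to 284 CPM at T0 and 154 to 357 at T30. At T120, where 5 rose beside 37.3% of the table, they summed to 329 to 621 CPM. Of 13 immune markers 1, Cd68, was in the table, at 10.2 ± 1.12 CPM at T0 (SD, n = 4) and 34.0 ± 15.1 at T30 (n = 3), a rise of 1.72 ± 0.34 (adjusted p = 0.00298). The 7 listed of 10 smooth muscle and pericyte markers summed to 961 to 1140 CPM at T0 and 987 to 1290 at T120. There 2 rose and 1 fell, beside 37.3% and 39.5% of the table. Rgs5 went from 12.4 to 125 CPM, Myh11 from 20.9 to 96.0 CPM and Tagln from 45.7 to 60.1 CPM. Notch3, the largest part of that sum, went from 724 to 575 CPM. Of the 5 listed of 9 fibro-adipogenic markers, 2 rose at T120, where 37.3% of the table rose. The 1 listed glial marker, Mbp, was not called against T0. The part of these cells in the changes of the 6 genes was not tested. Of 5 tenocyte and 5 erythroid markers, 0 were in the table. Among the stem cell markers 0 fell at T30 or T60, beside 1.34% and 28.3% of the table. At T120 7 fell and 5 rose, beside 39.5% and 37.3%. There Pax7 fell by 1.83 ± 0.16 and Myod1, the factor of activated muscle cells, rose by 3.52 ± 0.21.

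Over the 22 libraries the log2 level of Tsc22d3 ran with that of Klf15 (Pearson r = 0.94), Fkbp5 (0.93) and Zbtb16 (0.85), and that of Sgk1 with Klf9 (0.82). Pairs across the 2 groups ran from -0.83 (Sgk1 and Klf15) to -0.43 (Zbtb16 and Klf9). These values describe libraries that share time points, totals and background. By the same measure the genes most like Tsc22d3 were Zkscan3 (0.962), Tfdp2 (0.962) and Timm44 (0.96). For Fkbp5 they were Ppp1r12b (0.942), Tsc22d3 itself (0.925) and Tfdp2 (0.918). For Zbtb16 they were Pde10a (0.953), Foxo3 (0.953) and Tns2 (0.944), and for Klf15 Secisbp2 (0.968), Zkscan3 (0.965) and Neurl4 (0.964). Sgk1 was followed most closely by ENSMUSG00000084894 (0.977), Tmem65 (0.976) and Dnajc25 (0.973), and Klf9 by Gem (0.965), Sidt2 (0.962) and Irs2 (0.96). Likeness in shape did not mean a like size: Zkscan3 went from 73.2 ± 8.35 CPM at T0 to 32.3 ± 1.37 at T120, a far smaller fall than that of Tsc22d3, from 249 ± 140 to 13.7 ± 1.46 CPM (SD, n = 4).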

How the data were processed

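The deposited table holds whole-number counts per gene for 22 bulk libraries, per the file headers. Per the submitters' processing notes, cutadapt 1.11, featureCounts 1.4.5-p3 and DESeq2 1.18.1 were among the tools and mm10 was the build. No source used here gives their roles, the aligner, the annotation or the strand setting. Per the labels' protocols, RNA was taken with a kit for fixed material, made into stranded libraries and read as single ends. The authors' second set of columns is a score, counts divided by 1 factor per library and rounded (largest gap 0.586). It was used only to check the scaling. The authors' deposited log2 fold changes and adjusted p-values are quoted where named. The lowest mean normalized count in the table is 98.4, so weak genes are not in it, and totals over listed genes are not full depth. The other 9 samples, of single nuclei and single cells, were not analysed here.

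Counts of all 22 libraries were fitted with edgeR 4.0.16 (R 4.3.3), with time point as a factor, TMM scaling and filterByExpr, which kept all 8059 genes. Quasi-likelihood F test p-values were adjusted by Benjamini-Hochberg over these genes and called under 0.05. Levels are CPM with TMM factors. Each SE was obtained by dividing the absolute log2 value by √F. Per-kb levels divide by the exon length of GENCODE vM21, which 8049 listed genes matched. Background was read from 5 genes (Muc16, Mroh2a, Pclo, Dnah8 and Csmd1). Ryr3, planned as the sixth, had 6.16 to 24 CPM per kb in all libraries and was dropped after its values were seen. For subtraction, density times exon length was taken from each count. Library letters were checked for pairing. Deviations from group means correlated with a median of 0.12 over 51 same-letter pairs and -0.02 over 150 others. The ranges overlapped (-0.57 to 0.47 and -0.74 to 0.71), so this check cannot decide whether letters pair libraries. The main fit took no account of letters. The script was tested on simulated data. Alternatives used other scalings, limma-voom 3.58.1, DESeq2 1.42.0, no filter, 2 time points alone, a letter block, background subtraction and left-out libraries.

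The 6 genes and all lists were chosen with earlier results of these data known. Named were the 6 genes, Nr3c1, up to 4 genes per list (8 for other targets) with the smallest joint p, and the 3 genes most like each of the 6. Genes outside this rule are said to be so. A gene that the rule would name is not reported here.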

Additional observations from a re-analysis of the deposited data

How the results depend on the processing

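The counts of the 6 genes called against T0 at T30 (3), T60, T90 and T120 (6 each) and at any time point (6) were as reported in every run except 1: after background subtraction without Ryr3, chosen after seeing the data, T30 had 4. Leaving out 1 library gave 0 to 1 at T15, 3 to 3 at T30, 6 to 6 at T60, T90, T120 and any time point, 3 to 5 from T15 to T30, 3 to 4 from T30 to T60, 1 to 2 from T60 to T90 and 1 to 1 from T90 to T120. A fit of only the 2 time points compared gave 0 at T15 and 2 from T15 to T30. Subtraction without Ryr3 gave 0 at T15, 2 from T30 to T60 and 1 from T60 to T90, and subtraction with Ryr3 2 from T30 to T60. limma-voom gave 1 from T60 to T90. T120 against T90 had 2 with the 5 high-background libraries left out, a fit with 1 T30 library, assumed to vary like the others.

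Some small values turned sign, and of these 1 was called as reported, the 0.61 of Zbtb16 from T30 to T60. For T15 against T0, Tsc22d3 was -0.05 with Ryr3 subtraction, -0.07 without Ryr3 and -0.09 without the 5 libraries. Under the same settings Zbtb16 was -0.04, -0.07 and -0.07. Klf15 was -0.12 and -0.13 after the subtractions and -0.03 by library totals, and Fkbp5 -0.08 without the 5 libraries. From T15 to T30 Klf9 was 0.00 by totals and 0.39 and 0.53 after the subtractions. From T30 to T60 Fkbp5 was -0.15 by totals and Zbtb16 -0.04 after subtraction without Ryr3. From T60 to T90 Klf9 was -0.05 with Ryr3 subtraction. For T120 against T90, Tsc22d3 was 0.00 under the letter block and 0.28 with Ryr3 subtraction. Fkbp5 was -0.01 by limma-voom, -0.03 under the block and -0.02 after subtraction without Ryr3. Sgk1 was 0.01 by DESeq2, its size factors or totals, 0.02 by 2 time points or without the 5 libraries, and 0.07 after subtraction without Ryr3. Leaving out 1 library turned 20 of 528 values and cost 18 their call, and the cause was not tested. Over those runs the T15 values spanned -0.19 to 0.45 for Tsc22d3, -0.07 to 0.38 for Fkbp5, -0.03 to 0.23 for Zbtb16 and -0.17 to 0.27 for Klf15, and Klf9 from T15 to T30 -0.27 to 0.05. T120 against T90 spanned -0.21 to 0.23 for Tsc22d3, -0.13 to 0.15 for Fkbp5 and -0.08 to 0.16 for Sgk1.

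Taking library letters as a replicate block ended 1 call among the 6 genes, Sgk1 from T15 to T30 (-0.64, adjusted p = 0.0648), so that 3 were called there. Scaling by totals moved the median of all genes by -0.32 at T60, -0.41 at T90, -0.38 at T120 and -0.34 from T30 to T60. It gave 1320 higher of 5342 called at T60, 1774 of 5969 at T90 and 2074 of 6293 at T120, beside 2252 of 4533, 2727 of 5546 and 3003 of 6187. From T30 to T60 it gave 1034 of 4696 beside 2137 of 4111. Genes called at T30 against T0 (403) numbered 624 after subtraction, 147 without the 5 libraries and 244 without T30A. From T15 to T30 (394) they numbered 647 by DESeq2, 260 by limma-voom, 98 by 2 time points, 69 without the 5 libraries, and 107 (without T30A) to 1140 (without T15D) on leaving out 1. With subtraction (Ryr3 in, then out) they were 2683 and 2596 at T60, 3665 and 3669 at T90, 1524 and 2120 from T30 to T60 (1619 without the 5), 392 and 744 from T60 to T90 (2441), 222 and 443 from T90 to T120 (1851, or 793 by 2 time points), and 4285 at any time with Ryr3 (6909). Leaving out T90A gave 1621 from T60 to T90, and leaving out T90B 907 from T90 to T120. Subtraction raised the common coefficient of variation from 0.192 to 0.381, and at T30 background limits Fkbp5 and Klf15 most.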
